A study of Rattus norvegicus with 12 samples.

Results

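Lactic acid bacteria and bifidobacteria were followed through faecal 16S rRNA gene libraries of rats, as the variants whose deposited lineage named Lactobacillaceae, Leuconostocaceae, Streptococcaceae, Enterococcaceae or Bifidobacteriaceae. The rule used names alone and took 176 of 7238 amplicon sequence variants (ASVs, exact 16S sequences inferred from the reads). Lactobacillus held 114 of them, Streptococcus 24, Bifidobacterium 20, Enterococcus 10, Weissella 4, Lactococcus 2 and Pediococcus 1. The remaining ASV, named only to Lactobacillaceae, had 1 read in all. ASVs are numbered within a genus by their mean share over the 12 libraries. Of the 176, 38 had at least 10 reads in at least 3 libraries, which was the condition for testing an ASV.

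Lactic acid bacteria ferment sugars to lactate and tolerate the acid they make. In rats, lactobacilli colonise the lining of the forestomach and are shed into the gut, so they are a regular part of the faecal community. Bifidobacteria ferment dietary and host glycans to acetate and lactate, and other gut bacteria turn part of that lactate into butyrate or propionate. Weissella, Pediococcus and Lactococcus are best known from plants, feed and fermented food, while streptococci and enterococci are cocci of the mouth and gut that include opportunists.

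The study asked whether the faecal community differed among experimental groups after tetrandrine (Tet), a plant alkaloid, had been given to rats with subarachnoid haemorrhage (SAH). The groups were Sham (sham operation), SAH (haemorrhage), SAH+Tet (haemorrhage and tetrandrine) and SAH+Tet+ABX (haemorrhage, tetrandrine and ABX, a usual short form for antibiotics), each with 3 libraries under 1 batch label. Strain, age, doses, the drugs behind ABX and the sampling time after surgery were not given in the sources used here. A second treatment label, shared by every sample, names a fat-cell protocol that does not match faeces and was left aside. Nothing in the labels ties a library to its own animal, so p-values measure only the spread between these libraries.

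Libraries held 211450 to 531426 reads. SAH 1, SAH+Tet 3 and the 3 SAH+Tet+ABX libraries were the shallower ones, all under 300000 reads. Where no read was seen, 3 reads were taken as the upper limit, which is 0.000565% of the deepest library and 0.00142% of the shallowest. Wilson 95% intervals were narrow at high counts (34.1% to 34.5% for Lactobacillus in SAH+Tet+ABX 1) and wide at low ones (0.000860% to 0.00471% for 5 Enterococcus reads in SAH 1), and cover counting error only. In 4 libraries, SAH 2, SAH 3, SAH+Tet 1 and SAH+Tet 2, a list of 16 aerobic and environmental genera such as Corynebacterium held 11.2% to 20.6% of reads. The list includes Aerococcus, Facklamia and Atopostipes, which belong to the order Lactobacillales but lie outside the 5 families. In the other 8 libraries the list held 0.00980% to 0.0632%, and results that rest on those 4 libraries are given without them too. The 8 others hold 1 SAH and 1 SAH+Tet library, both shallow, so fits on them take the spread of those arms from the other groups and describe single libraries there. Chloroplast and mitochondrial lineages had 0 reads.

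The 5 families together held 16.96%, 10.8% and 8.02% of reads in the Sham libraries and 27.0%, 17.5% and 11.9% in SAH. They held 12.0%, 6.14% and 14.5% in SAH+Tet and 34.7%, 17.1% and 8.54% in SAH+Tet+ABX. Every pair of neighbouring groups overlapped, and the highest and the third-lowest of the 12 values were both SAH+Tet+ABX libraries. Means were 11.9% ± 4.58 (SD, n = 3 here and below) for Sham and 18.8% ± 7.66 for SAH, then 10.9% ± 4.27 with tetrandrine and 20.1% ± 13.4 with antibiotics added. The summed share did not pass (exact permutation p = 0.452 over the 4 groups, adjusted p = 0.509 over the 9 single values tested this way). All values are shares, so fewer of these bacteria and more of the others cannot be told apart.

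**Figure D1:**
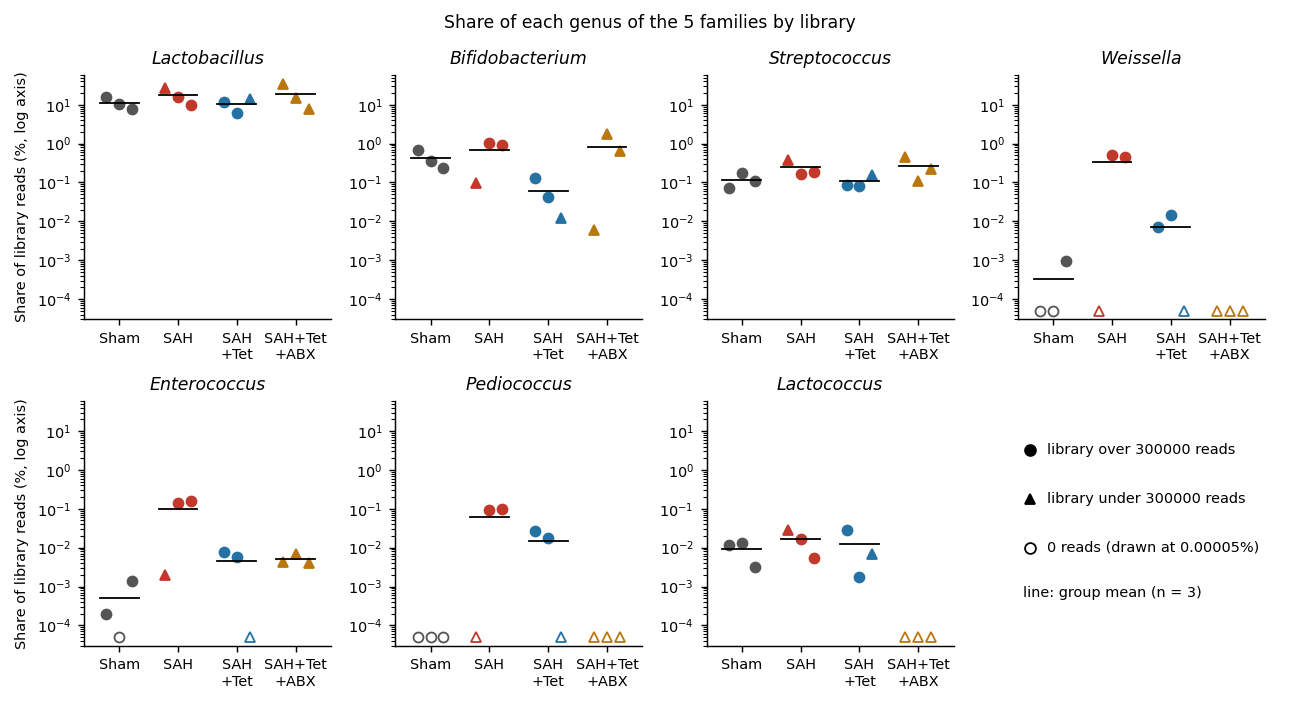
Share of library reads (percent, log axis) for the 7 named genera in each of the 12 libraries. Circles are libraries over 300000 reads, triangles those under, open symbols libraries with 0 reads, and lines group means. Lactobacillus spans 5.98% to 34.3% with overlapping groups, while Lactococcus has 0 reads in all 3 SAH+Tet+ABX libraries and Weissella and Pediococcus are highest in SAH 2 and SAH 3.

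All 7 genera had a higher fitted share in SAH than in Sham, and all 7 had a lower one in SAH+Tet than in SAH, but 0 passed the test in either comparison. The background was also 0: of 188 genera tested, 0 (0%) passed in SAH against Sham and 0 (0%) in SAH+Tet against SAH (edgeR's quasi-likelihood test, Benjamini-Hochberg adjusted over all genera). Those comparisons share the SAH libraries, so a high SAH value enters both with opposite signs. At an unadjusted p under 0.05 they held 4 of 7 and 2 of 7 members, against 55 and 37 of 188 genera. DESeq2 called 4 members of 50 genera in SAH against Sham and 1 member of 32 in SAH+Tet against SAH. The members' median log2 difference was 1.47 in SAH against Sham (0.22 over all 188 genera) and -2.19 in SAH+Tet against SAH (0.09 over all).

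With antibiotics, 1 of 7 genera changed: Lactococcus fell, against 73 of 196 genera (37.2%) that passed in SAH+Tet+ABX against SAH+Tet by edgeR's quasi-likelihood test. The members' median log2 difference was 0.36 there, and -1.65 over all genera tested. Over the 4 groups, 3 of 7 genera differed, Lactococcus, Enterococcus and Weissella, beside 64 of 196 genera (32.7%).

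Lactobacillus, the acid-tolerant genus that made up 84.8% to 98.8% of the members' reads in each library, held 16.2%, 10.2% and 7.66% in Sham. It held 26.5%, 15.5% and 10.1% in SAH, then 11.7%, 5.98% and 14.3% in SAH+Tet. In SAH+Tet+ABX it held 34.3%, 15.2% and 7.66%. The groups overlapped throughout, and 1 library in each of SAH and SAH+Tet+ABX set the high means of 17.4% ± 8.38 and 19.0% ± 13.7. The log2 difference was 0.98 ± 0.51 (SE) in SAH against Sham, -1.14 ± 0.52 in SAH+Tet against SAH and 0.89 ± 0.61 in SAH+Tet+ABX against SAH+Tet. Adjusted p-values by edgeR's quasi-likelihood test were 0.267, 0.272 and 0.253. Without SAH 1, SAH libraries at 15.5% and 10.1% lay within the Sham range.

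A few ASVs carried the genus. Lactobacillus ASVs 1 to 4 were seen in all 12 libraries and took 85.6% to 97.7% of Lactobacillus reads in each, while 95 of the 114 ASVs were seen in 1 library alone and took 0.123% of the reads. ASV 2 bore the name Lactobacillus intestinalis, a species known from rodent intestine, and carried 112306 of that name's 112335 reads. ASVs 1, 3 and 4 had no species name.

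ASV 1, the most abundant Lactobacillus variant, held 10.3%, 3.16% and 2.40% of library reads in Sham and 19.7%, 11.2% and 6.58% in SAH. It held 5.61%, 1.97% and 4.47% in SAH+Tet and 16.8%, 3.10% and 3.59% in SAH+Tet+ABX. Each SAH library exceeded each SAH+Tet library, whereas SAH and Sham overlapped through Sham 1. The log2 difference of SAH+Tet against SAH was -1.70 ± 0.80 (edgeR's quasi-likelihood adjusted p = 0.241), and that of SAH against Sham 1.28 ± 0.79 (adjusted p = 0.363).

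Within the genus the pattern was tighter. ASV 1 made up 74.1%, 72.2% and 65.4% of Lactobacillus reads in the SAH libraries, above every other library. Sham had 63.4%, 30.8% and 31.3%, and SAH+Tet 48.0%, 32.9% and 31.3%. The parts of depth and of the aerobic genera in this were not tested.

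ASV 2, named L. intestinalis, ran the other way. It held 0.959%, 4.14% and 2.06% of library reads in Sham, 0.942%, 0.616% and 0.836% in SAH, and 3.46%, 2.05% and 7.59% in SAH+Tet. Values in SAH+Tet+ABX were scattered at 9.45%, 1.19% and 0.175%. All SAH libraries lay below all Sham and all SAH+Tet libraries. The log2 difference was -1.51 ± 0.80 in SAH against Sham (edgeR's quasi-likelihood adjusted p = 0.278) and 2.20 ± 0.82 in SAH+Tet against SAH (adjusted p = 0.195).

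ASV 3 held 2.27%, 1.98% and 2.46% in Sham, and 1.43%, 1.01% and 0.570% in SAH. It held 1.32%, 1.60% and 0.329% in SAH+Tet, and 1.66%, 9.71% and 2.95% in SAH+Tet+ABX. Sham lay above SAH, and SAH+Tet+ABX above SAH+Tet, without overlap. It was the leading Lactobacillus variant in SAH+Tet+ABX 2. Neither difference passed (log2 -1.09 ± 0.89 and 1.22 ± 1.01, adjusted p = 0.552 and 0.337 by edgeR's quasi-likelihood test).

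ASV 4 followed ASV 1 across libraries, at 1.03%, 0.460% and 0.142% in Sham and 3.87%, 1.83% and 0.636% in SAH. It held 0.429%, 0.107% and 0.894% in SAH+Tet and 2.72%, 0.590% and 0.696% in SAH+Tet+ABX. ASV 1 was 5.00 to 18.4 times as abundant as ASV 4 in every library. Pearson's r between their shares was 0.96 and Spearman's rho 0.89 over 12 libraries, as a description, since both are shares of the same totals and the pair was picked after its values were seen.

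**Figure D2:**
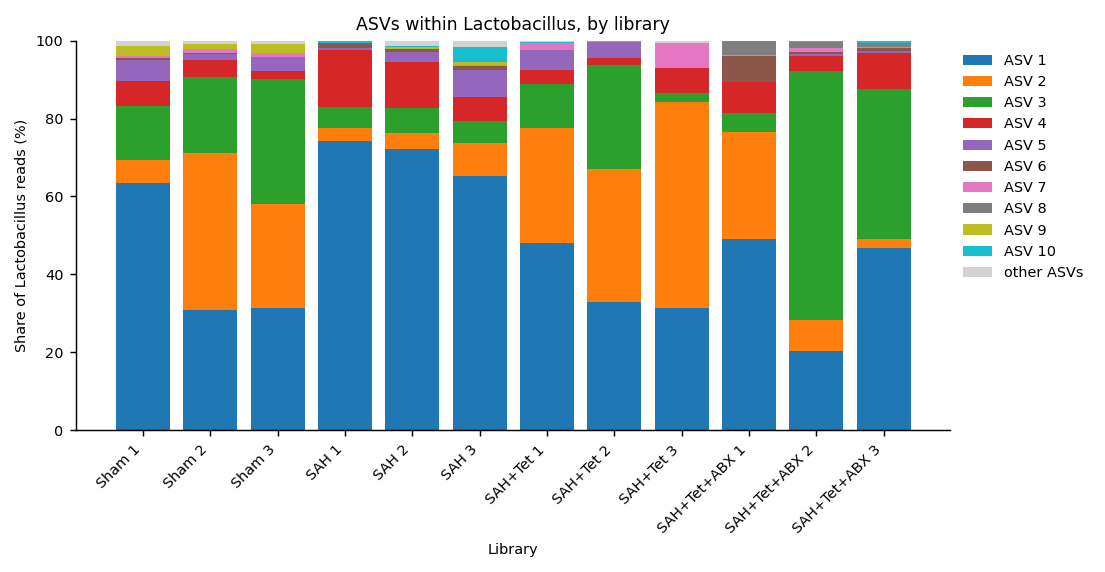
Share of Lactobacillus reads (percent) taken by each of the 10 most abundant Lactobacillus ASVs and by all others, as a stacked bar for each library. ASV 1 fills 65.4% to 74.1% of the SAH bars, ASV 2 reaches 53.1% in SAH+Tet 3 and ASV 3 is the largest segment in SAH+Tet+ABX 2.

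Lower-ranked Lactobacillus ASVs differed mostly by presence. ASV 8 had 0 reads in all 9 libraries without antibiotics and held 1.23%, 0.246% and 0.0682% in SAH+Tet+ABX. Its mean level was at least 605-fold higher than in SAH+Tet, counting 0 as 3 reads per library (edgeR's quasi-likelihood adjusted p = 0.0453). It met the filter of 10 reads in 3 libraries only through the group where it was high, so this p is a description and no independent support. ASV 6 had 0 reads in all 3 SAH+Tet libraries, but held 0.348%, 0.138% and 0.102% in SAH and 2.35%, 0.0952% and 0.0506% in SAH+Tet+ABX. In Sham it held 0.0764%, 0.0197% and 0. By group means, ASV 6 rose at least 977-fold from SAH+Tet to SAH+Tet+ABX (edgeR's quasi-likelihood adjusted p = 0.0405). Its lower level in SAH+Tet than in SAH, at least 230-fold, did not pass (adjusted p = 0.179, same test). Of 17 alternative settings, 2 called that difference: DESeq2 (adjusted p = 5.27e-05) and edgeR's quasi-likelihood test without the filter (0.00782). SAH+Tet+ABX 1 set most of the antibiotic means of ASV 6 and ASV 8, so folds in SAH+Tet+ABX 2 and 3 were smaller. The adjusted p-values of 0.0405 and 0.0453 both lay near the threshold. With depth class as a block the adjusted p was 0.116 for ASV 6 and 0.152 for ASV 8 by edgeR's quasi-likelihood test, and all SAH+Tet+ABX libraries were shallow. For ASV 6 the adjusted p was 0.0857, 0.0618 and 0.0600 on leaving out SAH+Tet+ABX 1, 2 and 3, 0.0745 and 0.0728 on leaving out SAH+Tet 1 and 2, and 0.0560 on leaving out SAH 2. For ASV 8, which could not be tested without any SAH+Tet+ABX library, it was 0.0773 and 0.0740 on leaving out SAH+Tet 1 and 2, 0.0527 and 0.0553 on leaving out Sham 1 and 3, and 0.0537 on leaving out SAH 2. Over the 8 libraries with few aerobic genera, where SAH+Tet 3 alone stood for SAH+Tet, the adjusted p was 0.240 for ASV 6 and 0.121 for ASV 8 by the same test.

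These are 2 of 3 member ASVs called between SAH+Tet+ABX and SAH+Tet, out of 38 tested, with ASV 8 tested only by virtue of its high group. The third was Lactococcus ASV 1, and 247 of 2394 ASVs (10.3%) passed overall. Without SAH+Tet+ABX 3 no ASV of any genus passed in that comparison. Median log2 differences were 0 over the 38 members and -6.61 over all ASVs (-1.57 with ASVs at 0 reads in a group set to their bound). Of the members, 15 lay above 0 and 16 below. Their median fell on ASVs with 0 reads in both groups, whose log2 difference is 0 by default, so it is no measured lack of change. In SAH against Sham and in SAH+Tet against SAH, 0 of 36 member ASVs and 0 of 2283 ASVs (0% and 0%) passed edgeR's quasi-likelihood test. At an unadjusted p under 0.05 there were 10 and 9 members, beside 553 and 474 ASVs, and DESeq2 called 8 and 6 members, among 396 and 294 of all 2283 ASVs. The members' median log2 difference was 0.83 in SAH against Sham (-0.67 over all ASVs) and -1.49 in SAH+Tet against SAH (0.15 over all).

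ASV 9 was highest in Sham. It held 0.425%, 0.125% and 0.189% there, against 0, 0.0862% and 0.0936% in SAH. SAH+Tet libraries had 0.00175%, 0.00290% and 0, and each SAH+Tet+ABX library had 0. Lactobacillus ASV 13, named Lactobacillus faecis, was seen in Sham alone, at 0.0766%, 0.0213% and 0.0308%. ASV 9 differed over the 4 groups by edgeR's quasi-likelihood test (adjusted p = 0.0454). ASV 13, ASV 8 and Bifidobacterium ASV 4 also fell under the threshold (adjusted p = 0.0410 each, same test), but each had reads in the 3 libraries of 1 group alone and met the filter only through that group. Their p-values are therefore no independent support. Those 4 were the members called among 38, beside 430 of 2394 ASVs (18%). The count over all ASVs was 0 without SAH 2, without any 1 Sham library, without any 1 SAH+Tet+ABX library, and with depth class as a block. For ASV 9 the adjusted p was then 0.0737, 0.0834 to 0.0995, 0.0836 to 0.0924 and 0.106, in that order. Its call was lost too on leaving out SAH 3 (0.0687), SAH+Tet 1 (0.0764) or SAH+Tet 2 (0.0645). For ASV 8 it was 0.0578 without SAH 2, 0.0730 to 0.0979 without 1 Sham library, and 0.134 with the depth block.

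ASV 10 had 0 reads in Sham and 0.116%, 0.0533% and 0.385% in SAH, a level at least 310-fold higher that did not pass (edgeR's quasi-likelihood adjusted p = 0.117). Of 16 alternative settings, 3 called that difference. They were DESeq2 (adjusted p = 5.8e-16) and edgeR's quasi-likelihood test without the filter (0.00562) or with the 2 groups alone (0.0322). With the 2 groups alone the ASV met the filter only through SAH. Its remaining reads were in SAH+Tet 1 (0.0376%), SAH+Tet+ABX 2 (0.0470%) and SAH+Tet+ABX 3 (0.0449%). ASV 5 had 0 reads in SAH+Tet 3 and SAH+Tet+ABX 1 and 0.0474% to 0.886% in the other 10 libraries. ASV 7 had 0 reads in SAH 1 and SAH 2, reached 0.934% in SAH+Tet 3 and held 0.00600% to 0.214% in the other 9. In the fits over all 9 or 12 libraries, neither passed in any of the 4 comparisons by edgeR's quasi-likelihood test, with lowest adjusted p-values of 0.184 and 0.246. Over the 8 libraries with few aerobic genera, the log2 difference of ASV 7 in SAH against Sham was -11.5. There SAH 1, with 0 reads of it, stood alone for SAH.

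**Figure D3:**
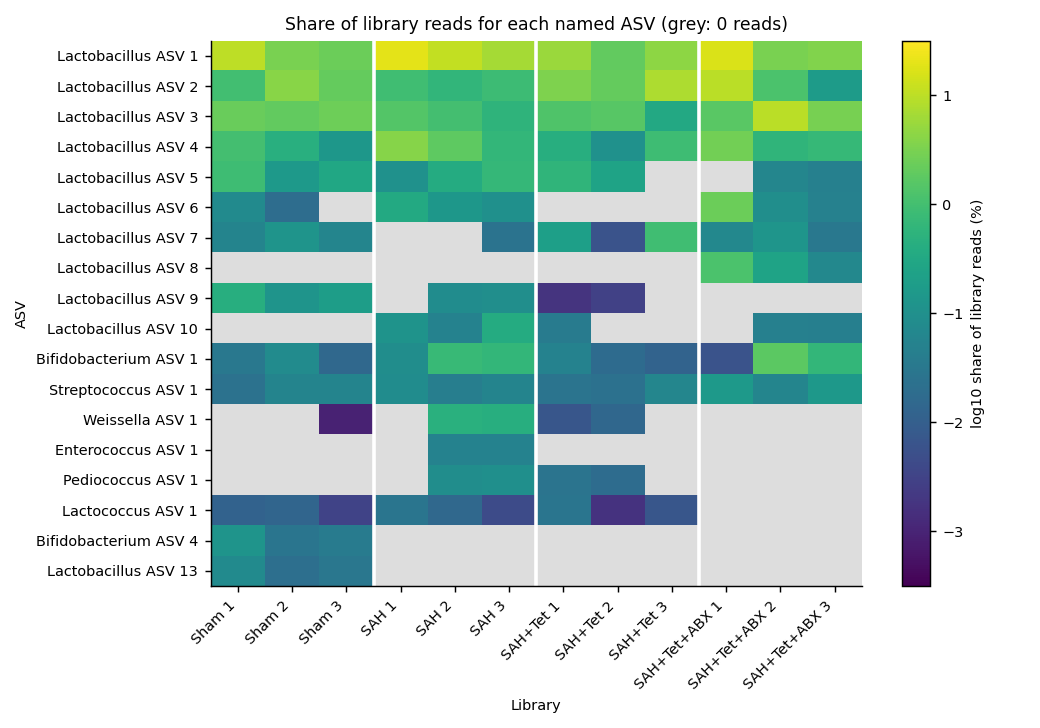
Share of library reads (log10 of percent, colour) for the named ASVs (rows) in each of the 12 libraries (columns), with grey for 0 reads. Lactobacillus ASV 8 is coloured only in the SAH+Tet+ABX columns, Bifidobacterium ASV 4 and Lactobacillus ASV 13 only in Sham, and Lactobacillus ASV 6 is grey in all 3 SAH+Tet columns.

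Within Lactobacillus, SAH had the lowest mean effective number of ASVs. That number (inverse Simpson index, the number of equally abundant variants that would give the same evenness) was 2.31, 3.35 and 3.63 in Sham and 1.74, 1.84 and 2.23 in SAH. In SAH+Tet it was 2.99, 3.35 and 2.57, and in SAH+Tet+ABX 3.02, 2.18 and 2.65. SAH lay below Sham and below SAH+Tet without overlap (exact permutation p = 0.1 each, the smallest that 3 against 3 allow), with mean differences of -1.16 and 1.03. The differences were -1.06 and 1.13 within the deeper libraries. The index is weighted to the commonest variant, so the low SAH values restate in part the high ASV 1 share of the genus there. By the exponential of Shannon's index, which weights rare variants more, SAH (2.44, 2.85 and 3.75) overlapped both Sham (3.63, 4.14 and 4.30) and SAH+Tet (3.84, 3.70 and 3.23). Over the 4 groups the test did not pass (exact permutation p = 0.0747, adjusted p = 0.203; the adjusted p was 0.0491 without Sham 1).

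The number of Lactobacillus ASVs expected in 18760 reads of the genus was 19.4, 20.8 and 16.3 in Sham and 11.7, 21.5 and 18.5 in SAH. SAH+Tet had 17.9, 14.1 and 14.3, and SAH+Tet+ABX 8.30, 13.7 and 11.0. SAH+Tet+ABX lay below SAH+Tet without overlap (mean difference -4.42, exact permutation p = 0.1). Of the other shallow libraries, SAH 1 lay within the SAH+Tet+ABX range and SAH+Tet 3 above it. The part of depth in that separation was not tested. Over the 4 groups the exact permutation p was 0.0901 (adjusted p = 0.203, and 0.0454 without SAH 1). With depth class as a block the test over the 4 groups did not pass either.

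**Figure D4:**
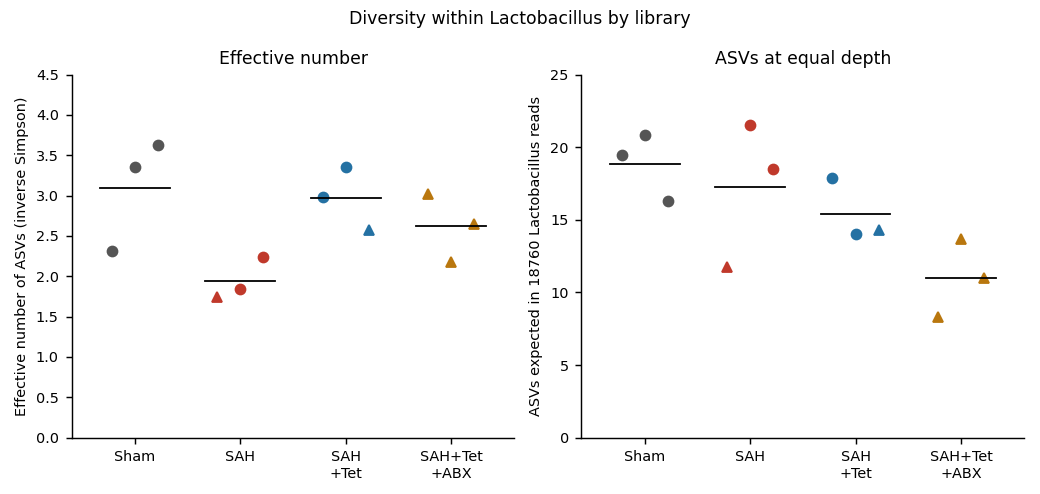
Effective number of Lactobacillus ASVs (left) and ASVs expected in 18760 Lactobacillus reads (right) in each library, with lines at the group means. Circles are libraries over 300000 reads and triangles those under. The 3 SAH libraries lie at 1.74 to 2.23 effective ASVs, below all SAH+Tet libraries (2.57 to 3.35).

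Composition within the genus was compared with Bray-Curtis distances, which run from 0 for identical to 1 for disjoint communities. SAH libraries were close to each other (mean 0.121, range 0.0520 to 0.175, 3 pairs). The high ASV 1 share that they had in common enters these distances too. Libraries of Sham lay 0.326 apart on average, those of SAH+Tet 0.272 and those of SAH+Tet+ABX 0.430. The mean distance between SAH and SAH+Tet was 0.469, and between Sham and SAH+Tet 0.272, below the mean distance within Sham. Between Sham and SAH it was 0.401, with a range of 0.116 to 0.574 that reaches into the range within SAH. SAH+Tet+ABX lay at mean distances of 0.378 from Sham, 0.436 from SAH and 0.413 from SAH+Tet. Groups accounted for 54.1% of the variation (exact permutation p = 0.0193), which did not pass after adjustment (adjusted p = 0.174). The adjusted p was 0.0491 without Sham 1 and 0.0234 without SAH+Tet+ABX 1. On presence alone (Jaccard distances) it was 0.000584 by the same permutation test. Presence there and in the counts that follow was taken at full depth, from 18760 to 82464 Lactobacillus reads per library. All Sham libraries were deep and all SAH+Tet+ABX libraries shallow, and the part of depth in presence was not tested. Of the Lactobacillus ASVs, 6 were seen in all 4 groups. Those seen in SAH+Tet+ABX alone, 10 of its 19, took 2.66% of that group's Lactobacillus reads, most of it ASV 8. Those seen in 1 other group alone were 32 of 45 in Sham, 31 of 43 in SAH and 27 of 38 in SAH+Tet. They took 0.791%, 0.426% and 0.135% of the Lactobacillus reads of their group. The same count over all ASVs was not made.

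Bifidobacterium, the only genus of its family here, had its lowest mean in SAH+Tet (0.0610% ± 0.0606). It held 0.677%, 0.360% and 0.237% in Sham and 0.0975%, 1.03% and 0.897% in SAH. It held 0.129%, 0.0418% and 0.0123% in SAH+Tet, and 0.00615%, 1.78% and 0.647% in SAH+Tet+ABX. SAH 1 overlapped SAH+Tet, and SAH+Tet+ABX 1 was the lowest of all 12. The log2 difference of SAH+Tet against SAH was -3.68 ± 1.18 (edgeR's quasi-likelihood adjusted p = 0.177, DESeq2 adjusted p = 0.00465). That of SAH+Tet+ABX against SAH+Tet was 3.99 ± 1.64 (adjusted p = 0.0759 by edgeR's quasi-likelihood test, 0.0198 without SAH+Tet+ABX 1). The family share did not pass over the 4 groups (exact permutation p = 0.384, adjusted p = 0.493). Without the 4 libraries rich in aerobic genera, with SAH 1 alone standing for SAH, the log2 difference of SAH against Sham turned from 0.91 to -1.65.

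The makeup of the genus set Sham apart from the other groups. Bifidobacterium animalis, a species of animal guts also used in fermented milk, took 4.76%, 38.6% and 6.41% of Bifidobacterium reads in Sham. It took 93.4%, 89.0% and 87.7% in SAH, 86.3%, 61.6% and 100% in SAH+Tet, and 100%, 95.9% and 98.4% in SAH+Tet+ABX. Every library outside Sham lay above every Sham library. All Sham libraries were deep and low in aerobic genera, and the parts of depth and of those genera were not tested. The values of 100% rest on 28 and 13 reads. This split was computed after the values were seen and was not tested.

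Bifidobacterium ASV 1, which bore that species name, held 0.0323%, 0.0823% and 0.0152% of library reads in Sham and 0.0910%, 0.755% and 0.657% in SAH. It held 0.0515%, 0.0176% and 0.0123% in SAH+Tet and 0.00615%, 1.71% and 0.636% in SAH+Tet+ABX. SAH lay above both Sham and SAH+Tet without overlap, but neither difference passed edgeR's quasi-likelihood test. The high SAH values of 0.755% and 0.657% came from libraries rich in aerobic genera. Without those, SAH rests on SAH 1 alone, whose 0.0910% was close to the highest Sham value of 0.0823%. The log2 difference was 3.83 ± 1.40 in SAH against Sham and -4.46 ± 1.44 in SAH+Tet against SAH (edgeR's quasi-likelihood adjusted p = 0.149 and 0.179). DESeq2 gave adjusted p-values of 0.0189 and 0.00698, and no other setting called the ASV in these comparisons. Over 17 alternative settings the log2 difference ranged from 0.73 to 4.76 in SAH against Sham. In SAH+Tet against SAH it ranged from -5.33 to -3.03.

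The variants that filled the Sham libraries had no species name. Bifidobacterium ASV 2, named here after its values were seen, took 69.6%, 29.96% and 68.4% of the genus in Sham and at most 17.6% in any other library. ASV 4 was seen in Sham alone, at 0.121%, 0.0279% and 0.0373% of library reads, and had an adjusted p of 0.0410 over the 4 groups by edgeR's quasi-likelihood test. It too met the filter only through its high group, so that p supports nothing further. It was at least 76.4-fold lower in SAH than in Sham, which did not pass (edgeR's quasi-likelihood adjusted p = 0.110). It was no longer called over 4 groups without SAH 2 (0.0578), without SAH+Tet+ABX 1, 2 or 3 (0.0643 to 0.0698), and with depth class as a block (0.0982), all edgeR's quasi-likelihood adjusted p-values. It could not be tested without a Sham library. The corresponding values for Lactobacillus ASV 13, tested under the same settings, were 0.0578, 0.0643 to 0.0698 and 0.0975. Shares of Bifidobacterium ASV 2 and Lactobacillus ASV 9 ran together over the 12 libraries (Pearson's r = 0.99, Spearman's rho = 0.92), described after the pair was seen and with totals in common.

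Streptococcus was present in every library. It held 0.0718%, 0.174% and 0.108% in Sham, 0.381%, 0.167% and 0.188% in SAH. Tetrandrine-treated rats had 0.0880%, 0.0826% and 0.155%, and those with antibiotics too 0.456%, 0.110% and 0.223%. Each SAH+Tet library lay below each SAH library. The log2 difference was -1.57 ± 0.58 in SAH+Tet against SAH (edgeR's quasi-likelihood adjusted p = 0.203) and 1.47 ± 0.58 in SAH against Sham (adjusted p = 0.140). ASV 1, its most abundant variant, was present in all 12 libraries, at 0.0228% to 0.163%, and had an adjusted p of 0.813 over the 4 groups by the same test.

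Streptococcus ASV 2, chosen after its values were seen, varied more than its genus. It held 0.00222%, 0 and 0.00327% in Sham and 0.208%, 0.0706% and 0.0553% in SAH, then 0.0118%, 0.00503% and 0.00836% in SAH+Tet. SAH lay above both other groups without overlap. SAH 1, with 0.0632% of aerobic genera, was its highest library. SAH+Tet+ABX libraries had 0.0497%, 0.00427% and 0.0118%, the first of them close to SAH 3. By edgeR's quasi-likelihood test the log2 difference from Sham was 5.88 ± 1.73 (adjusted p = 0.110), and DESeq2 gave an adjusted p of 0.000120. DESeq2 called 396 of 2283 ASVs in that comparison. Because the ASV was chosen after its values were seen, these p-values are a description and no independent support.

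Enterococcus, Weissella and Pediococcus were seen mainly in SAH 2 and SAH 3. The cocci of Enterococcus held 0.000202%, 0 and 0.00135% in Sham and 0.00201%, 0.141% and 0.158% in SAH. The SAH+Tet libraries had 0.00764%, 0.00580% and 0, and with antibiotics it held 0.00426%, 0.00683% and 0.00408%. SAH 1, with 5 reads, exceeded Sham 3 narrowly and lay within the SAH+Tet range. The genus differed over the 4 groups (edgeR's quasi-likelihood adjusted p = 0.0249), and its log2 difference of 7.83 ± 2.33 in SAH against Sham did not pass (adjusted p = 0.135). It was the member genus, 1 of 7, whose SAH and Sham libraries did not overlap, beside 66 of 188 genera (35.1%). Enterococcus ASV 1 had reads in SAH 2 and SAH 3 alone, at 0.0525% and 0.0512%.

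Weissella, a heterofermenter of plant material, held 0.522% and 0.465% in SAH 2 and SAH 3. SAH+Tet 1 and 2 had 0.00699% and 0.0147%, Sham 3 had 0.000962% (5 reads), and the other 7 libraries had 0 reads. It differed over the 4 groups (edgeR's quasi-likelihood adjusted p = 0.0325). Weissella ASV 1 carried 4474 of the genus' 4974 reads. In SAH against Sham the log2 difference of the genus was 10.21 ± 3.30 and did not pass (edgeR's quasi-likelihood adjusted p = 0.135).

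Pediococcus, a coccus of plant and silage fermentations, was a lone ASV. It held 0.0913% and 0.0971% in SAH 2 and SAH 3, 0.0264% and 0.0182% in SAH+Tet 1 and 2, and 0 in the other 8 libraries. It did not pass over the 4 groups (edgeR's quasi-likelihood adjusted p = 0.0614). Pediococcus and Weissella thus had at least 10 reads in the same 4 libraries, those rich in the aerobic genera. Shares of Weissella ASV 1 and Pediococcus ASV 1 had a Pearson's r of 0.97 and a Spearman's rho of 0.92 over 12 libraries, given as a description. The part of the aerobic genera in these results was not tested.

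Single libraries moved these calls. For Enterococcus edgeR's quasi-likelihood adjusted p over 4 groups was 0.0101 without SAH 1 and 0.0512 to 0.0644 on leaving out Sham 1, SAH 2, SAH 3, SAH+Tet 2 or 1 of SAH+Tet+ABX 2 and 3. For Weissella it was 0.0105 without SAH 1, and 0.0544 to 0.0732 on leaving out any 1 of 9 others. The exceptions were SAH+Tet 3 (0.0293) and SAH+Tet+ABX 1 (0.0497). Within the deeper libraries, 2 SAH against 3 Sham, both genera and Pediococcus passed edgeR's quasi-likelihood test, as did 24 of 183 genera there (adjusted p = 0.00656 for Enterococcus, 0.00469 for Weissella and 0.00186 for Pediococcus). That restriction drops SAH 1 and keeps the SAH libraries in which these genera were high. Over the 8 libraries with few aerobic genera none of the 3 had enough reads to be tested, and the SAH value rests on SAH 1, with 0 Weissella, 0 Pediococcus and 5 Enterococcus reads. As family shares, Enterococcaceae and Leuconostocaceae did not pass (exact permutation p = 0.0865 and 0.141, adjusted p = 0.203 and 0.254), but both did without SAH 1 (adjusted p = 0.0454 each). Depth class as a block gave adjusted permutation p-values of 0.00429 and 0.0429. That block sets SAH 1 apart from SAH 2 and SAH 3, much as leaving SAH 1 out does. Within SAH and SAH+Tet the shallow libraries were also those low in aerobic genera, so the block cannot separate depth from those genera.

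**Figure D5:**
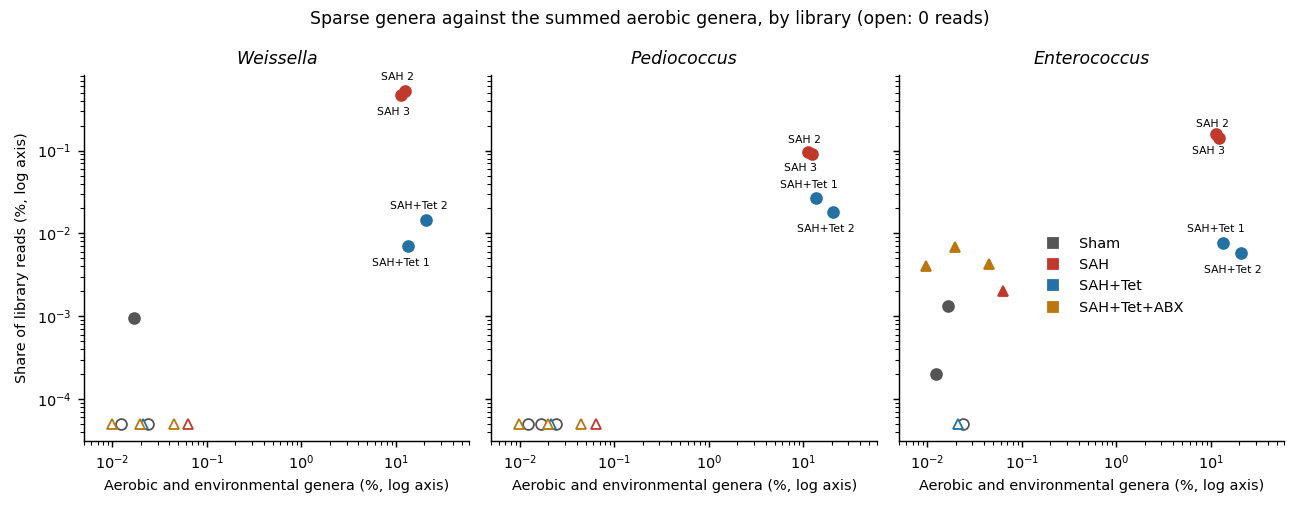
Share of library reads (percent, log axis) of Weissella, Pediococcus and Enterococcus against the summed share of 16 aerobic and environmental genera (percent, log axis), 1 point per library, coloured by group. Open symbols are libraries with 0 reads. Triangles are libraries under 300000 reads. SAH 2, SAH 3, SAH+Tet 1 and SAH+Tet 2 stand to the right at 11.2% to 20.6%, and hold nearly all Weissella and Pediococcus reads.

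Lactococcus, known from milk and plant material, was not seen in the antibiotic group. It held 0.0119%, 0.0132% and 0.00327% in Sham, 0.0278%, 0.0167% and 0.00557% in SAH. SAH+Tet libraries had 0.0277%, 0.00174% and 0.00704%. All 3 SAH+Tet+ABX libraries had 0 reads, where 3 reads would have been 0.00123% to 0.00142%. By group means, Lactococcus fell at least 9.30-fold from SAH+Tet to SAH+Tet+ABX (edgeR's quasi-likelihood adjusted p = 0.0101). SAH+Tet 1, with 127 reads, set most of the SAH+Tet mean. SAH+Tet 2 and 3 had 9 and 16 reads, and the share in SAH+Tet 2 was close to that 3-read limit. The adjusted p of Lactococcus in that comparison stayed between 0.00607 and 0.0250 when any 1 library was left out. Over the 8 libraries with few aerobic genera it was 0.0383, with SAH+Tet 3 alone standing for SAH+Tet. Lactococcus ASV 1, with 466 of the 477 reads, gave the same bound (adjusted p = 0.0326 by edgeR's quasi-likelihood test). Its call was lost without any 1 SAH+Tet+ABX library (0.0829 to 0.0883), without Sham 1 or 3 (0.0597 and 0.0596), without SAH 2 (0.0503), without SAH+Tet 1 (0.0529), with depth class as a block (0.0555) and with no filter on low counts (0.103). Over the 4 groups the genus had an adjusted p of 0.0249, which was 0.0502 without SAH 2 and 0.0537 to 0.0651 without 1 SAH+Tet+ABX library.

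Groups that did not overlap were common in these data at large, which is the scale for the members' separations. In SAH+Tet against SAH, 1 of 7 member genera (Streptococcus, lower) did not overlap, beside 44 of 188 (23.4%). In SAH+Tet+ABX against SAH+Tet it was again 1 of 7 (Lactococcus, lower), beside 82 of 196 (41.8%). Among member ASVs, 5 were higher and 9 lower without overlap in SAH against Sham, out of 36, beside 701 of 2283 ASVs (30.7%). In SAH+Tet against SAH 1 was higher and 5 lower, beside 366 of 2283 (16%). The counts were 3 higher and 2 lower in SAH+Tet+ABX against SAH+Tet, out of 38, beside 546 of 2394 (22.8%).

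Genera that take up lactate were read from a list of 12, of which 5 could be tested. Bilophila and Desulfovibrio, which can oxidise lactate or related acids while reducing sulfur compounds, fell in SAH+Tet+ABX against SAH+Tet, where both had 0 reads (edgeR's quasi-likelihood adjusted p = 0.00299 and 0.00174). That is 2 of 5, beside the 37.2% of all genera that passed there. The other 3 did not pass, and 0 of 5 passed in SAH against Sham or in SAH+Tet against SAH. Anaerostipes, a butyrate producer that grows on lactate, held 0.157%, 0.114% and 0.498% in SAH+Tet+ABX and at most 0.0318% in any other library (adjusted p = 0.105 in SAH+Tet+ABX against SAH+Tet by edgeR's quasi-likelihood test). The median log2 difference of the 5 was -0.78 in SAH against Sham, 0.26 in SAH+Tet against SAH and -0.46 in SAH+Tet+ABX against SAH+Tet, beside 0.22, 0.09 and -1.65 over all genera.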

How the data were processed

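Faecal DNA of 12 rat samples (4 groups of 3) was sequenced for 16S rRNA gene amplicons. The authors deposited read counts per ASV with a lineage, not normalised, and the 12 sample tables were identical to the columns of the deposited series table. The submitters' processing notes name fastp and cutadapt. The denoiser, chimera filter, 16S region and taxonomy database are not stated there.

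Of 7240 ASV rows, 2 eukaryotic ones were left out. Counts were summed by genus, and shares were taken of library totals, with no correction for 16S copy number. The members, lists and comparisons were chosen with earlier results of these data known. ASVs and genera with at least 10 reads in at least 3 libraries were fitted over the whole table with edgeR 4.0.16 (TMM, quasi-likelihood test, Benjamini-Hochberg adjusted, threshold 0.05) in R 4.3.3. SAH against Sham and SAH+Tet against SAH used the 9 libraries without antibiotics, the others all 12. Each SE was computed as the size of the log2 difference over the square root of F. For bounds, a group with 0 reads was set to 3 reads per library, and group means were compared. The 9 single values per library (the summed share and 5 family shares as logs after adding 0.0001%, 2 diversity measures and the composition) had exact permutation tests, adjusted over the 9. Intervals are Wilson 95%. PCR reads are not independent molecules, so intervals cover counting error only. Named were the 7 genera, the 10 most abundant Lactobacillus ASVs, the leading ASV of each other genus and every member called. Alternatives were DESeq2 1.42.0, no TMM, no filter, a replicate block, a depth block, the deeper libraries, 2 groups alone, each library left out and, chosen after seeing the data, the 8 libraries with few aerobic genera. Scripts (Python 3.11.15, numpy 2.4.6, pandas 2.3.3, matplotlib 3.10.9) were tested on simulated data.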

Additional observations from a re-analysis of the deposited data

How the results depend on the processing

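Depth and group were partly tied, since all SAH+Tet+ABX libraries were shallow and all Sham libraries deep. Within SAH and SAH+Tet the shallow libraries were also those low in aerobic genera, so a depth block cannot separate depth from those genera. Calls for Weissella, Pediococcus and Enterococcus rest on libraries with few reads elsewhere, and shares carry no bacterial load. In the 8 libraries with few aerobic genera, SAH and SAH+Tet are 1 library each, assumed to vary like the other groups. The causes of the changes below were not tested. Without TMM, the median log2 difference over all features moved by -0.34, 0.23 and -0.13 for genera and -0.27, 0.14 and 0.79 for ASVs (the haemorrhage, tetrandrine and antibiotic comparisons in that order).

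Genera passing in SAH against Sham numbered 50 with DESeq2, 29 with depth class as a block, 24 in the deeper libraries and 0 to 1 with a library left out. In SAH+Tet against SAH they numbered 32 with DESeq2, 1 in the deeper libraries and 0 to 1 with a library left out. In SAH+Tet+ABX against SAH+Tet, in place of 73, there were 43 with the 2 groups alone, 30 in the 8 libraries with few aerobic genera and 45 to 87 with a library left out. Over 4 groups, in place of 64, there were 99 without the filter, 42 in the 8 libraries and 38 to 78 with a library left out.

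ASVs passing in SAH against Sham numbered 396 with DESeq2, 160 without the filter, 308 with the 2 groups alone and, with SAH 1 alone against Sham in the 8 libraries, 509 of 1348, of which 505 were lower. In SAH+Tet against SAH they numbered 294 with DESeq2 and 90 without the filter. In SAH+Tet+ABX against SAH+Tet, in place of 247, there were 159 without TMM, 902 with DESeq2, 145 with depth class as a block, 426 with the 2 groups alone and 0 to 560 with a library left out. Over 4 groups, in place of 430, there were 1017 without the filter, 0 with depth class as a block, 878 in the 8 libraries and 0 to 487 with a library left out.

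The replicate block used label numbers that do not pair the libraries: of 18 same-numbered pairs, 5 had a correlation of deviations over 0.1 (range -0.58 to 0.56). With the replicate block, genera called numbered 44 in SAH+Tet+ABX against SAH+Tet and 20 over 4 groups, and ASVs 99 and 397. Adjusted p-values over 4 groups were then 0.0621 for Lactococcus, 0.133 for Enterococcus and 0.142 for Weissella, and 0.108 for Lactococcus ASV 1 in SAH+Tet+ABX against SAH+Tet, by edgeR's quasi-likelihood test.

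Adjusted permutation p-values with depth class as a block were 0.0429 for Leuconostocaceae and 0.00429 for Enterococcaceae. Composition by Jaccard distances, on presence not brought to equal depth, gave 0.000584. With a library left out, exact permutation tests gave adjusted p-values of 0.0454 to 0.580 for Leuconostocaceae, 0.0454 to 0.385 for Enterococcaceae and for ASVs at equal depth, 0.0491 to 0.385 for the effective number and 0.0234 to 0.385 for composition.

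Among log2 differences that did not pass, some changed sign. In SAH against Sham, Bifidobacterium was at -1.65 in the 8 libraries, and Lactobacillus ASV 5 at -0.20 without TMM, -0.21 without the filter, -0.13 with the 2 groups alone, -2.28 in the 8 libraries and -0.60 to 0.89 with a library left out. In SAH+Tet against SAH, Lactococcus was at 0.33 and its ASV 1 at 0.13 in the deeper libraries (-2.12 to 0.16 with a library left out). Lactobacillus ASV 3 was there at -0.023 with DESeq2, -0.16 with depth class as a block, -2.27 in the 8 libraries and -0.36 to 0.72 with a library left out, and ASV 5 at -1.55 to 0.025. In SAH+Tet+ABX against SAH+Tet with depth class as a block, values were 4.64 for Weissella, 3.86 for its ASV 1, 1.58 for Pediococcus, 1.23 for its ASV 1, -0.041 for Lactobacillus ASV 1, 0.83 for ASV 5 and 3.77 for ASV 9. Lactobacillus ASV 1 was at -0.20 with the replicate block, and ASV 5 at 9.54 in the 8 libraries. With a library left out, Enterococcus ranged from -0.20 to 0.88, Lactobacillus ASV 1 from -0.96 to 0.48, ASV 4 from -0.12 to 1.45 and ASV 10 from -0.090 to 9.17.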
